A study of Mus musculus with 12 samples.

Results

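The genes described here are 35 genes that encode the basement membrane of tissues and the glycoproteins bound to it, found by their symbols in the raw count table of the inguinal white adipose tissue (iWAT) of 12 mice. All 35 symbols were present among the 54134 genes listed. Of these, 31 had enough reads to be tested, out of 15585 tested genes in all. Col4a6, with 0 to 6 reads per mouse, Lama1, with 0 to 8, Fras1, with 1 to 6, and Frem2, with 0 to 3, were too low to be compared. A count of 0 in these libraries allows up to 3 reads, or 0.139 to 0.204 CPM (counts scaled to library size), so these genes were not shown to be absent.

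The mice, named here by the numbers of their labels (S_2011 and so on), were male C57BL/6J animals that received, at 8 weeks of age, a tail vein injection of an adeno-associated virus (AAV) carrying either green fluorescent protein (AAV-GFP, 6 mice, called GFP mice from here on) or mouse Notum (AAV-Notum, 6 mice, called Notum mice). A thyroxine binding globulin promoter directed the transgene to the liver in both groups. Both groups then ate chow for 4 weeks and were fasted for 4 h before iWAT was taken. NOTUM is a secreted enzyme that removes the lipid from Wnt proteins, and the comparison asks how its release by the liver bears on gene expression in a fat depot that the transgene was not directed to. The iWAT was whole tissue, so that fewer cells of a type and less RNA per cell cannot be told apart in any value given here.

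A basement membrane is a thin sheet of matrix that lies under endothelium and epithelium and surrounds muscle fibres, nerves and fat cells. Laminins, trimers of an alpha, a beta and a gamma chain, assemble on the cell surface through integrins and dystroglycan, and a network of type IV collagen is joined to them by nidogens and by the heparan sulfate proteoglycans perlecan and agrin. In adipose tissue the sheet encloses each adipocyte and the capillaries between them, and its collagens and laminins are made by several cell types, endothelial cells among them.

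Libraries held 14711113 to 21618860 reads. RNA integrity numbers ran from 5.7 (mouse S_2011) to 7.6 (mouse S_2022) in GFP and from 6.9 to 7.4 in Notum mice. The RNA of GFP mouse S_2012 was isolated 20 days after that of all others. Adipocyte markers were present in every mouse, with summed levels of 45233 to 80928 CPM in GFP and 41172 to 94867 CPM in Notum mice and no marker at 0 reads over the series. A list of 15 lymphocyte markers summed to 16.1 CPM in GFP mouse S_2011 and 9.54 CPM in GFP mouse S_2014, against 325.9 to 2406 CPM in the other 10 mice, so those libraries stood apart. Notum itself, whose transgene was directed to the liver, had 1 to 17 reads in iWAT of GFP mice. Among Notum mice it had 560 in mouse S_2032, 433 in mouse S_2041 and 8 to 16 in the others, which does not check the labels. Mice S_2032 and S_2041 also had the highest sums of hepatocyte markers among Notum mice, 138.9 and 777.7 CPM.

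Most of the genes were lower in Notum mice. The log2 fold change (Notum minus GFP, on TMM-normalized counts) was below 0 for 26 of the 31 tested genes, where 48.8% of all tested genes were below 0, and its median was -0.58 against 0.00773 over all tested genes. By edgeR's quasi-likelihood test, 18 of the 31 were lower at an unadjusted p under 0.05, where the background was 9.54%, and 1 was higher, where the background was 4.64%. None of the 31 passed an adjusted p of 0.05 after Benjamini-Hochberg adjustment over all 15585 genes, where 0.0513% of all genes passed in the lower direction, and the smallest adjusted p of a basement membrane gene was 0.112 by that test. With DESeq2, the tool of the study, 12 of the 31 passed in the lower direction, where the background was 2.18%. With limma-voom 0 passed, where the background was 0.0385%.

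Those 12 were Col4a1, Col4a2, Col18a1, Lama5, Lamb2, Lamc1, Nid1, Hspg2, Sparc, Smoc2, Tinagl1 and Hmcn2. The study had itself put 10 of the 31 genes in a basement membrane cluster chosen on these same mice, and those 10 are therefore not independent evidence of a direction. Among the other 21 tested genes, 16 had a log2 fold change below 0, 8 were lower at an unadjusted edgeR p under 0.05 and 1 was higher, their median was -0.40, and Sparc and Tinagl1 passed DESeq2's adjusted test. Tinagl1 stood in another list that the study drew from these mice, so it is no more independent than the 10. Only for Tinagl1 were the groups of mice separate, where 0.693% of all tested genes had every Notum mouse below every GFP mouse. No gene of the 31 had the Notum mice all above, where the background was 0.398%.

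**Figure D1:**
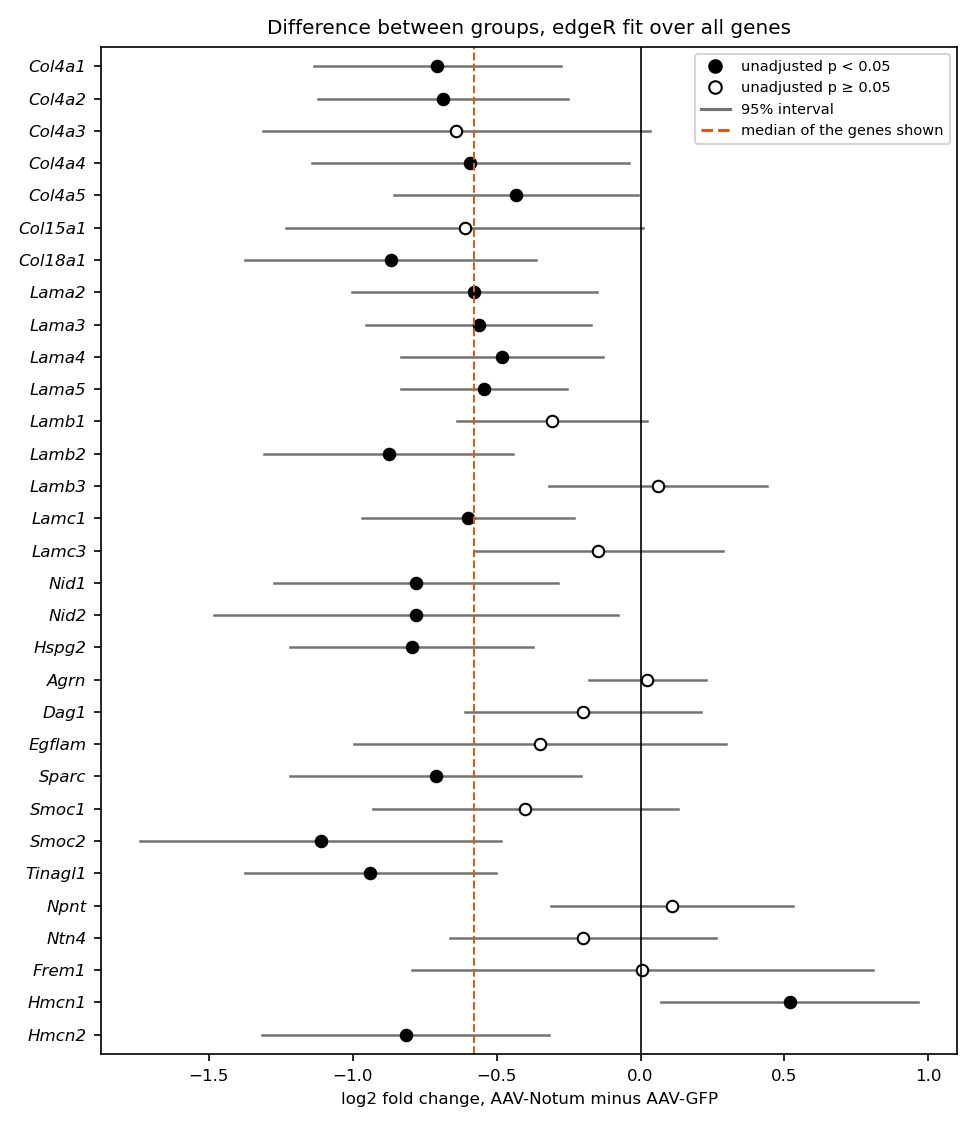
Log2 fold change of the 31 tested basement membrane genes (horizontal axis, Notum minus GFP, edgeR) with 95% intervals, filled where the unadjusted p was under 0.05. Most points sit left of 0 around the median of -0.58, while Hmcn1 at 0.52 is the filled point on the right and Agrn, Lamb3 and Frem1 lie close to 0.

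The mice did not contribute evenly to these differences. The summed level of the 31 genes was 7833 to 16711 CPM (median 13010.4) in GFP and 6414 to 9400 CPM (median 7376) in Notum mice. GFP mice S_2011, S_2012, S_2014 and S_2021 were at 12377 CPM or more, whereas GFP mice S_2013 and S_2022, at 7889 and 7833 CPM, lay inside the range of the Notum mice. Of the 31 genes, mouse S_2011 was above every Notum mouse for 26, mouse S_2014 for 25, mouse S_2012 for 23 and mouse S_2021 for 18, but mouse S_2022 for 7 and mouse S_2013 for 4. Mouse S_2011, with the lowest RNA integrity number (5.7), was the highest of its group for 16 genes. Mouse S_2012, whose RNA was isolated later, was the highest for 10. The lowest summed level in GFP mice was that of mouse S_2022, with the highest RNA integrity number (7.6). With the RNA integrity number in the fit, the median log2 fold change was -0.45. In that fit 15 genes were lower at an unadjusted edgeR p under 0.05, as were 928 of all 15585 tested genes. The part of RNA quality was not tested further. Among Notum mice, mouse S_2042 was the highest for 16 genes and mouse S_2031 the lowest for 13.

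The spread was also unequal. For 30 of the 31 genes the coefficient of variation was larger in GFP than in Notum mice, with medians of 31.7% and 18.2%. The share over all tested genes was not counted, so this is not shown to be particular to these genes. Lamb1 was the exception. With mouse S_2022 left out, 5 genes passed the adjusted edgeR test (Col18a1, Lamb2, Hspg2, Smoc2 and Tinagl1), where the background was 0.93%, and with any other single mouse left out none did. GFP mice S_2011 and S_2014, the lymphocyte-poor libraries, were also the highest and second highest in summed level, and without both the count of lower genes at an unadjusted edgeR p under 0.05 was 13, where the background was 4.95%, and the median log2 fold change was -0.37. The part of these libraries in the result was not tested further.

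**Figure D2:**
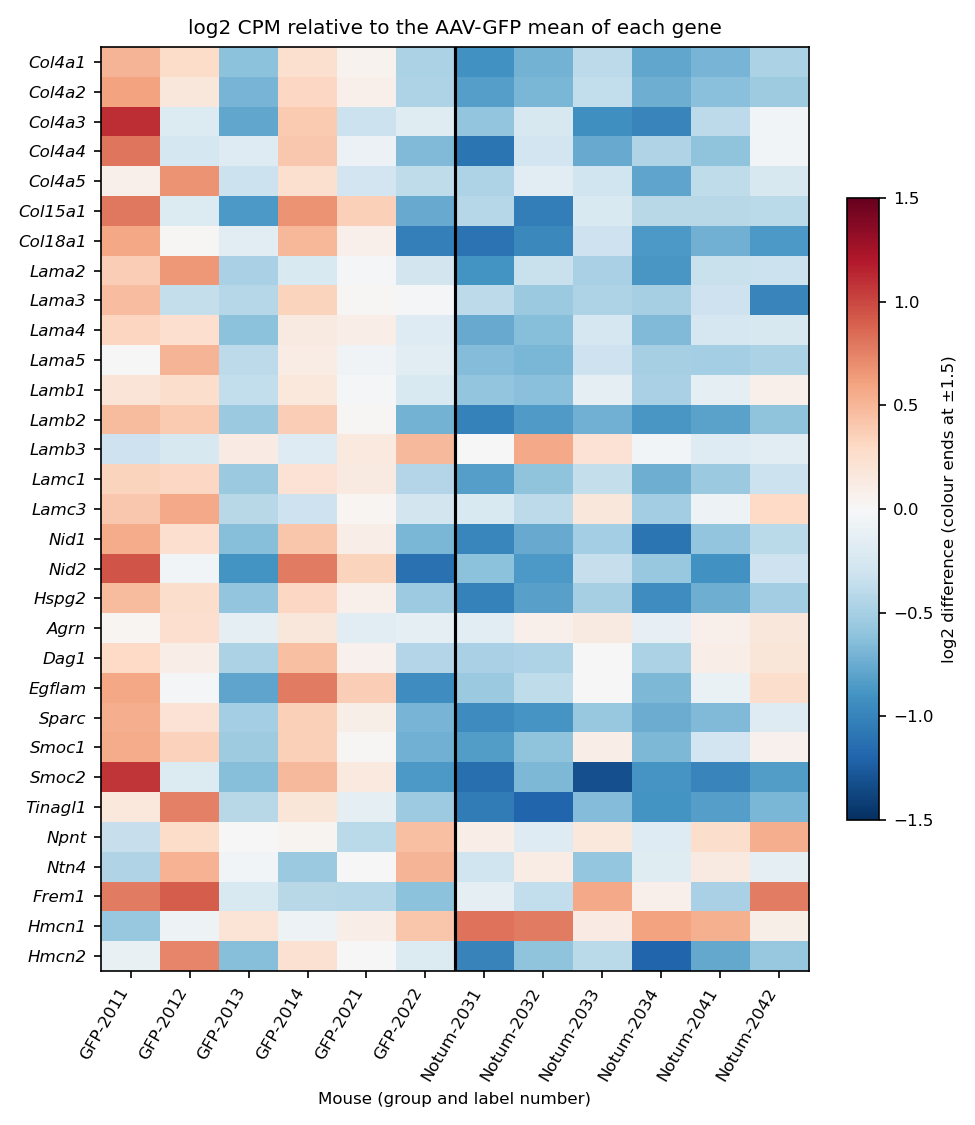
Level of each of the 31 tested genes in each mouse as the log2 difference from the GFP mean of that gene (colour), genes in rows and mice in columns, with a line between the groups. Blue runs through most genes in the Notum mice, least so in mice S_2042 and S_2033, and in GFP mice S_2013 and S_2022, and Hmcn1 shows the opposite colours.

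Type IV collagen forms the network that gives the sheet its tensile strength. Its genes lie in head-to-head pairs, and in the GENCODE annotation of GRCm38 the starts of Col4a1 and Col4a2 on chromosome 8 are 21 bases apart, those of Col4a3 and Col4a4 on chromosome 1 are 72 bases apart and those of Col4a5 and Col4a6 on chromosome X are 1309 bases apart. Col4a1 (ENSMUSG00000031502, chr8:11198423-11312826) and Col4a2 (ENSMUSG00000031503, chr8:11312805-11449287) encode the chains found in almost every basement membrane. Their promoter windows from RefSeq on GRCm38.p6, each 300 bases around the start of the gene, overlap by 78 bases, and both are shown because the pair varied together in these mice. The windows, chr8:11312777-11313076 on the minus strand for Col4a1 and chr8:11312555-11312854 on the plus strand for Col4a2, run 5′ to 3′ on the strand of the gene, with GC boxes (GGGCGG, or CCGCCC on the other strand) and CCAAT boxes (CCAAT, or ATTGG on the other strand) in capitals.
Col4a1: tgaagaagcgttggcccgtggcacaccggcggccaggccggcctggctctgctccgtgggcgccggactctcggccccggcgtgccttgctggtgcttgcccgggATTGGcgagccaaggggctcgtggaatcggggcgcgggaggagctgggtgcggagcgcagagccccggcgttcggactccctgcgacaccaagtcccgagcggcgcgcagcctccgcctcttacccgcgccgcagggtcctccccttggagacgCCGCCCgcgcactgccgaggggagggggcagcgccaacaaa
Col4a2: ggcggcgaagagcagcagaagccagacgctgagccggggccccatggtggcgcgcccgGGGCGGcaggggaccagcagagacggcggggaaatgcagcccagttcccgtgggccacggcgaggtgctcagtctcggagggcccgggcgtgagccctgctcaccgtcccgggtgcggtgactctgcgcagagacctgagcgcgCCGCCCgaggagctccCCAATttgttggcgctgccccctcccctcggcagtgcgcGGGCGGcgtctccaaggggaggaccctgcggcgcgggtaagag

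The Col4a1 window held 1 GC box and 1 CCAAT box, and the Col4a2 window 3 GC boxes and 1 CCAAT box. RefSeq windows of 300 bases were counted for 25 of the 35 genes, 33 windows in all. Windows on chromosome 18, where Lama3 lies, were left out of these but not of the windows of all genes. A GC box was present in 57.6% of these and in 35.7% of all 32851 promoter windows, and a CCAAT box in 39.4% and 37.4%. The letters TATAAA were in 0% of the windows of these genes and in 13.6% of all windows, and the core letters of TCF/LEF sites, CTTTGA, in 12.1% and 16.0%. Both strands were searched, and no motif lies within another. A match describes letters in the window and not a site of binding.

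Col4a1 had 1256 to 2749 CPM (median 2136) in GFP mice and 1024.5 to 1464 CPM (median 1178.5) in Notum mice. The Notum mice were tightly grouped, 4 of them were below every GFP mouse, and GFP mice S_2013 and S_2022 lay among them. The log2 fold change came to -0.71 (SE, the standard error, 0.20, 95% interval -1.14 to -0.28, unadjusted p = 0.00366 and adjusted p = 0.166 by edgeR). A two-sided exact permutation test of the log2 CPM over the 924 assignments of the mice gave p = 0.0108. Col4a2 had 607 to 1491 CPM (median 1071) in GFP and 552 to 758 CPM (median 625) in Notum mice, with the same pair of GFP mice inside the lower group. Its log2 fold change came to -0.69 (SE 0.20, adjusted p = 0.175 by edgeR, exact permutation p = 0.0238). The ratio of Col4a1 to Col4a2 reads within a mouse was 1.96 ± 0.107 (SD, n = 6) in GFP and 1.92 ± 0.0638 (SD, n = 6) in Notum mice (log2 difference -0.03), a difference no larger than the spread of the mice.

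The chains of the other type IV networks were far lower and were counted from few reads, 35 to 279 per mouse. Col4a3 had 2.57 to 9.75 CPM (median 3.91) in GFP and 2.21 to 4.34 CPM (median 3.17) in Notum mice, Col4a4 had 5.60 to 15.6 CPM (median 8.11) and 4.12 to 8.67 CPM (median 6.18), and Col4a5 had 5.54 to 11.6 CPM (median 6.76) and 4.13 to 6.44 CPM (median 5.69). The groups overlapped for all of them, and mouse S_2011 set the high end for Col4a3 and Col4a4 and mouse S_2012 for Col4a5. Their log2 fold changes were -0.64 (standard error 0.31, unadjusted edgeR p = 0.0600), -0.59 (0.25, p = 0.0371) and -0.43 (0.19, p = 0.0455), and exact permutation p-values were 0.113, 0.0714 and 0.0714. The unadjusted p was 0.05 or more in 13 of 28 alternatives for Col4a4 and in 18 for Col4a5. Without mouse S_2011 the log2 fold change was -0.33 for Col4a3 and -0.39 for Col4a4, and without mouse S_2012 it was -0.27 for Col4a5, each with an unadjusted edgeR p above 0.05. Exons of Col4a3 share 5.65% of their length with a transcript on the opposite strand, and the strand setting of the counting is not given in the sources used here.

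Col15a1 and Col18a1 encode collagens that carry heparan or chondroitin sulfate chains and tie the sheet to the fibrous matrix, and a fragment of the Col18a1 product is endostatin. Col18a1 (ENSMUSG00000001435, chr10:77052178-77166548) had 96.3 to 293 CPM (median 202) in GFP and 90.5 to 157 CPM (median 108) in Notum mice. Mouse S_2022 was the single GFP mouse within the Notum range. Its log2 fold change came to -0.87 (SE 0.23, unadjusted p = 0.00279 and adjusted p = 0.152 by edgeR, exact permutation p = 0.0173). Col15a1 had 293 to 925 CPM (median 573) in GFP and 259 to 455 CPM (median 398) in Notum mice. GFP mice S_2013 and S_2022 lay inside the Notum range and the other 4 above it, and its log2 fold change of -0.61 (standard error 0.28, unadjusted edgeR p = 0.0525, exact permutation p = 0.1515) was not larger than the spread between mice.

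**Figure D3:**
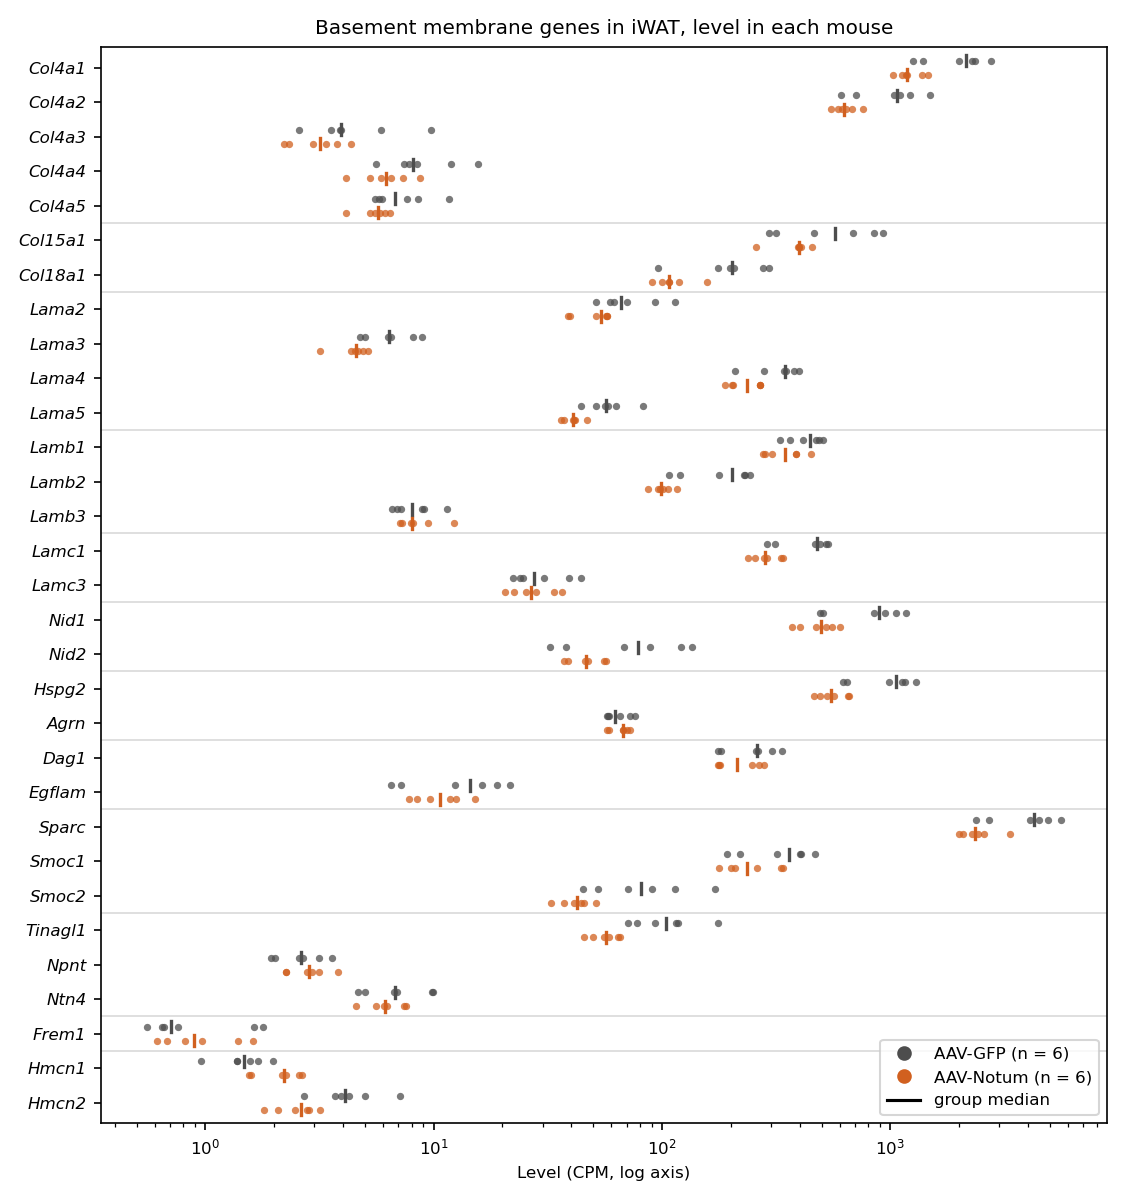
Level of the 31 tested genes in each mouse (horizontal log axis, CPM), points for GFP (grey) and Notum mice (orange) and a tick for the median of each group. The GFP points of many genes fall into a higher set and 2 lower points that overlap the Notum mice, as for Col4a1 and Nid1, and only the Tinagl1 groups are apart.

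Of the 10 laminin chain genes 9 were tested, 8 had a log2 fold change below 0 and 6 were lower at an unadjusted edgeR p under 0.05, beside 48.8% and 9.54% of all tested genes. The alpha chains carry most of the receptor binding sites. Lama4, the chain typical of vessels and fat cells, had 208 to 398 CPM (median 346) in GFP and 189 to 269 CPM (median 236) in Notum mice. Only GFP mouse S_2013 lay within the Notum range, and the log2 fold change came to -0.48 (SE 0.16, adjusted p = 0.229 by edgeR, exact permutation p = 0.02165). Lama5 (ENSMUSG00000015647, chr2:180176373-180225859), the broadly expressed chain of mature endothelium and epithelium, had 44.0 to 82.5 CPM (median 57.0) in GFP and 36.1 to 46.8 CPM (median 40.8) in Notum mice. Here 5 Notum mice were below every GFP mouse and mouse S_2033 overlapped mouse S_2013 alone, with a log2 fold change of -0.54 (standard error 0.13, unadjusted p = 0.00143 and adjusted p = 0.140 by edgeR, exact permutation p = 0.00433).

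Lama2, the chain typical of muscle and nerve, had 51.3 to 114 CPM (median 66.1) in GFP and 38.7 to 57.5 CPM (median 54.2) in Notum mice, a log2 fold change of -0.58 (standard error 0.20, unadjusted edgeR p = 0.0120, exact permutation p = 0.0238). Its GFP range was stretched by mice S_2011 and S_2012. Lama3, a chain of epithelial laminins, had 4.74 to 8.85 CPM (median 6.39) and 3.17 to 5.17 CPM (median 4.58), with 4 Notum mice below every GFP mouse. Its log2 fold change came to -0.56 (SE 0.18, unadjusted edgeR p = 0.00854, exact permutation p = 0.0130) on 49 to 158 reads per mouse. The 4 tested alpha chains thus had log2 fold changes between -0.58 and -0.48, a narrow range.

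The beta chains spread more widely. Lamb2 (ENSMUSG00000052911, chr9:108479736-108490530), the beta chain of mature vessels, glomerulus and neuromuscular junction, had 107 to 243 CPM (median 203) in GFP and 87.0 to 116 CPM (median 99.3) in Notum mice. All but Notum mouse S_2042 were below every GFP mouse, and mouse S_2022 was the only GFP mouse within the lower range. The log2 fold change came to -0.88 (SE 0.20, 95% interval -1.31 to -0.44, unadjusted p = 0.000822 and adjusted p = 0.124 by edgeR, exact permutation p = 0.00433). Lamb1, the beta chain made from early development on, had 329.6 to 508 CPM (median 445) and 276 to 449 CPM (median 345). Its groups overlapped more, 5 of 6 Notum mice were below the GFP mean, and its log2 fold change came to -0.31 (SE 0.15, unadjusted edgeR p = 0.0662, exact permutation p = 0.0758). Lamb3, a chain of skin laminin, had 6.56 to 11.5 CPM (median 8.02) and 7.14 to 12.2 CPM (median 8.05) with a log2 fold change of 0.06 (95% interval -0.32 to 0.44), whose sign turned with the RNA integrity number or a marker score in the fit.

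Of the gamma chains, Lamc1 (ENSMUSG00000026478, chr1:153218922-153332786), part of most laminin trimers, had 288 to 534 CPM (median 478) in GFP and 238 to 337 CPM (median 284) in Notum mice. GFP mice S_2013 and S_2022 lay again within the Notum range and the other 4 stood above it. Its log2 fold change came to -0.60 (SE 0.17, unadjusted p = 0.00398 and adjusted p = 0.166 by edgeR, exact permutation p = 0.0238). Lamc3, a chain of vessel, nerve and retinal laminins, had 22.2 to 44.1 CPM (median 27.4) and 20.6 to 36.4 CPM (median 26.7), overlapping groups with a log2 fold change of -0.15 (95% interval -0.58 to 0.29).

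Nidogens link laminin to type IV collagen. Nid1 (ENSMUSG00000005397, chr13:13437551-13512269) had 492 to 1165 CPM (median 894.5) in GFP and 369.9 to 599 CPM (median 497) in Notum mice. As for the major collagen chains, mice S_2013 and S_2022 were the GFP mice within the lower range. The log2 fold change came to -0.78 (SE 0.23, unadjusted p = 0.004825 and adjusted p = 0.176 by edgeR, exact permutation p = 0.0260). Nid2 had 32.2 to 135 CPM (median 78.6) and 37.3 to 56.8 CPM (median 46.6). No Notum mouse was below all GFP mice, since mouse S_2022 was the lowest of the 12, and the log2 fold change of -0.78 had a standard error of 0.32 (unadjusted edgeR p = 0.0321, exact permutation p = 0.128). Its unadjusted p was 0.05 or more in 15 of 28 alternatives, with log2 fold changes of -0.57 without mouse S_2011, -0.63 without mouse S_2014 and -0.13 with the lymphocyte score in the fit. Beside Col4a4, Col4a5 and Nid2, the other 15 genes lower at such a p lost that call in at most 3 of the alternatives. Exons of Nid2 share 437 bases, 8.45% of their length, with Rtraf on the opposite strand, and its total reads in the deposited normalized table were 0.867 times those in the raw table, so its level is less certain than the others.

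The genes of the heparan sulfate proteoglycans differed from each other. Perlecan, encoded by Hspg2 (ENSMUSG00000028763, chr4:137468769-137570630), binds growth factors and links laminin, nidogen and collagen in most basement membranes, whereas agrin, encoded by Agrn (ENSMUSG00000041936, chr4:156165290-156197488), joins laminin to dystroglycan and is best known for clustering acetylcholine receptors at the neuromuscular junction. Hspg2 had 622 to 1297 CPM (median 1054) in GFP and 461 to 662 CPM (median 547) in Notum mice. The upper 4 GFP mice were clear of all Notum mice and mice S_2013 and S_2022 were not, and the log2 fold change came to -0.80 (SE 0.19, 95% interval -1.22 to -0.37, unadjusted p = 0.00145 and adjusted p = 0.140 by edgeR, exact permutation p = 0.0130). Agrn had 57.4 to 76.2 CPM (median 62.0) and 57.4 to 72.1 CPM (median 67.6), nearly the same range in both groups. Its log2 fold change was 0.02 with a 95% interval of -0.18 to 0.23, which does not reach the fitted value of Hspg2.

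Within each mouse, the ratio of Agrn to Hspg2 reads was 0.0504 to 0.0928 in GFP and 0.106 to 0.127 in Notum mice, 0.0704 ± 0.0176 (SD, n = 6) against 0.118 ± 0.00816 (SD, n = 6). The groups did not overlap. Such a ratio does not depend on the scaling of libraries. The 10 pairs of genes set against each other in this way were chosen after the values of the genes had been seen, so their ratios are given as a description, with no test. The promoter windows of this pair are shown to set the proteoglycan with the lower level in Notum mice beside the one whose ranges nearly coincided. They are chr4:137468553-137468852 on the plus strand for Hspg2 and, of the RefSeq windows of Agrn, chr4:156197439-156197738 on the minus strand, again 5′ to 3′ with GC boxes in capitals, 5 in Hspg2 and 12 in Agrn, and neither holds a CCAAT box.
Hspg2: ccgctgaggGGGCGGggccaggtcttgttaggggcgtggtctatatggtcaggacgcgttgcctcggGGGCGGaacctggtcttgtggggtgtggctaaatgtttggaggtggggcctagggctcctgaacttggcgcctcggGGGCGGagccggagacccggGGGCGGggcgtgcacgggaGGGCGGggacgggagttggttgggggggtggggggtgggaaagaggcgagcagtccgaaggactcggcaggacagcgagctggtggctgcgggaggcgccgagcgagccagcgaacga
Agrn: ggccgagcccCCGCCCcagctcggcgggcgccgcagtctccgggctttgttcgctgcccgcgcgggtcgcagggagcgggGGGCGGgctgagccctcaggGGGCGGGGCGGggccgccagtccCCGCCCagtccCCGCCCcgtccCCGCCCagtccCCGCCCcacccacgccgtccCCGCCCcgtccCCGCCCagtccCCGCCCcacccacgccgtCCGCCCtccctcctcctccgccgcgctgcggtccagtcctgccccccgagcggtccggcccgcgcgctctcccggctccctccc

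Dag1 encodes dystroglycan, the receptor that ties laminin and agrin to the cytoskeleton, and Egflam encodes pikachurin, a dystroglycan ligand of the retina and muscle. Dag1 had 177 to 337 CPM (median 261) in GFP and 176 to 279 CPM (median 213) in Notum mice. The ranges coincided over most of their length, with a log2 fold change of -0.20 (95% interval -0.61 to 0.21, exact permutation p = 0.342). The ratio of Dag1 to Lamb2 reads within a mouse was 1.14 to 1.69 in GFP and 1.83 to 2.63 in Notum mice, and the groups did not overlap. Egflam had 6.53 to 21.6 CPM (median 14.4) and 7.81 to 15.1 CPM (median 10.7), wide and overlapping, with a log2 fold change of -0.35 (95% interval -0.99 to 0.30).

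The other ratios compared chains that can share a trimer or partners that can replace each other. Lamb2 to Lamb1 was 0.42 ± 0.0777 (SD, n = 6) in GFP and 0.295 ± 0.0376 (SD, n = 6) in Notum mice, and Lamc1 to Lamb1 was 1.00 ± 0.111 (SD, n = 6) and 0.84 ± 0.0964 (SD, n = 6). The mean of both was lower in Notum mice, with overlap between the groups. Smoc2 to Smoc1 was 0.264 ± 0.0642 (SD, n = 6) and 0.178 ± 0.0573 (SD, n = 6), a log2 difference of -0.60 that was -0.44 without mouse S_2033 or without mice S_2011 and S_2014. The ratios Lama5 to Lama4, Lama2 to Lama4, Nid2 to Nid1 and Col15a1 to Col18a1 differed by -0.05, -0.08, 0.12 and 0.31 on the log2 scale, with overlapping groups.

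**Figure D4:**
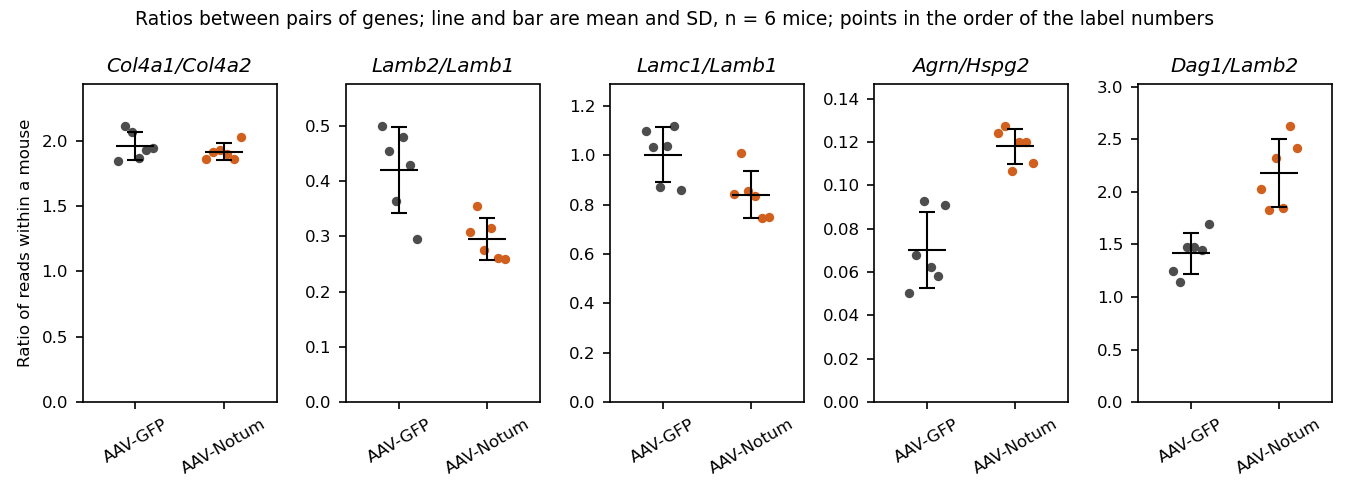
Ratio of reads of pairs of genes within each mouse (vertical axis, from 0), points for mice and line with bar for mean and SD (n = 6). Col4a1 to Col4a2 lies near 1.96 and 1.92 in the groups, whereas Agrn to Hspg2 and Dag1 to Lamb2 show no overlap.

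Among the matricellular proteins, SPARC binds collagen in the cell and aids its deposition in basement membranes, and SMOC1 and SMOC2 are its relatives within the sheet. Sparc (ENSMUSG00000018593, chr11:55394500-55423183) had 2359 to 5602.5 CPM (median 4276) in GFP and 2001.5 to 3354 CPM (median 2353) in Notum mice. GFP mice S_2013 and S_2022 lay inside the Notum range, and the log2 fold change came to -0.71 (SE 0.23, unadjusted p = 0.00977 and adjusted p = 0.221 by edgeR, exact permutation p = 0.02165). Smoc2 (ENSMUSG00000023886, chr17:14279506-14404790) had 44.8 to 171 CPM (median 80.7) and 32.5 to 51.2 CPM (median 42.6). Its GFP mice differed widely among themselves, with mouse S_2011 far above, while the Notum mice were close together. In the edgeR fit without covariates Smoc2 had the largest difference of the 31 genes, a log2 fold change of -1.11 (standard error 0.29, 95% interval -1.74 to -0.48, unadjusted p = 0.002235 and adjusted p = 0.151 by edgeR, exact permutation p = 0.00649). With the RNA integrity number in the fit it was -0.78, beside -0.90 for Tinagl1 and -0.88 for Hmcn2. With the lymphocyte score it was -0.54, beside -0.69 for Tinagl1. Smoc1 had 192 to 465 CPM (median 361) and 177 to 339 CPM (median 234), overlapping groups with a log2 fold change of -0.40 (95% interval -0.93 to 0.13).

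Tinagl1 (ENSMUSG00000028776, chr4:130164454-130175122) encodes a tubulointerstitial nephritis antigen-like glycoprotein that binds laminin and integrins. It had 70.9 to 175 CPM (median 104) in GFP and 45.4 to 65.7 CPM (median 56.9) in Notum mice. All 6 Notum mice were below all 6 GFP mice, mouse S_2022 being the nearest and mouse S_2012 the farthest. The log2 fold change came to -0.94 (SE 0.20, 95% interval -1.38 to -0.50, unadjusted p = 0.000509 and adjusted p = 0.112 by edgeR), with an adjusted p of 0.00205 by DESeq2 and 0.170 by limma-voom. The exact permutation p was 0.002165, the smallest possible. Its unadjusted p stayed under 0.05 in every alternative run for single genes, as did that of Lama5, Lamb2 and Hspg2, with log2 fold changes of Tinagl1 from -1.03 to -0.45.

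Npnt, the gene of nephronectin, a ligand of integrins, and Ntn4, the gene of a netrin that binds the short arm of laminin gamma chains, were low. Npnt had 1.94 to 3.57 CPM (median 2.63) in GFP and 2.25 to 3.82 CPM (median 2.86) in Notum mice, and Ntn4 had 4.65 to 9.94 CPM (median 6.80) and 4.57 to 7.57 CPM (median 6.13). Neither separated the groups, with log2 fold changes of 0.11 (95% interval -0.31 to 0.53) and -0.20 (-0.66 to 0.26). Of the Fraser complex, which anchors skin epithelium, only Frem1 was tested, with 9 to 30 reads per mouse and a log2 fold change of 0.01 whose interval of -0.80 to 0.81 is too wide to say more.

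The hemicentins, large matrix proteins of junctions between tissues, lay on opposite sides of 0. Hmcn1 (ENSMUSG00000066842, chr1:150562524-150993435) had 0.953 to 1.97 CPM (median 1.47) in GFP and 1.55 to 2.64 CPM (median 2.21) in Notum mice, on 17 to 52 reads per mouse. All Notum mice were above the GFP mean, with overlap between the groups, and the log2 fold change came to 0.52 (SE 0.21, unadjusted p = 0.0265 and adjusted p = 0.295 by edgeR, exact permutation p = 0.0238). It was the single gene of the 31 with an unadjusted p under 0.05 in the higher direction, and it lost that call in 9 of 28 alternatives: without mouse S_2011, S_2031 or S_2032, without mice S_2011 and S_2014 together, and with the RNA integrity number or the lymphocyte, endothelial, mural or fibroblast score in the fit (lowest value 0.19). Hmcn2 had 2.69 to 7.15 CPM (median 4.08) and 1.81 to 3.18 CPM (median 2.62), on 32 to 120 reads per mouse. Only GFP mouse S_2013 lay within the Notum range, and the log2 fold change came to -0.82 (SE 0.23, unadjusted p = 0.003815 and adjusted p = 0.166 by edgeR, exact permutation p = 0.00866).

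Set against exon length, the mean level in GFP and Notum mice was 1061 and 648 CPM per kilobase for Sparc, 268 and 164 for Col4a1, 155 and 96.5 for Col4a2, 120.3 and 70.1 for Nid1 and 95.4 and 72.3 for Smoc1. The laminin chains were lower, from 52.7 and 34.8 CPM per kilobase for Lamc1 to 0.613 and 0.415 for Lama3. Hmcn1 was the lowest tested gene on this scale in GFP mice, at 0.0702 CPM per kilobase. The genes that passed DESeq2's adjusted test thus ranged from Sparc, the most abundant, to Hmcn2, at 0.277 CPM per kilobase in GFP mice. In all, the reads of the genes made up 0.833% to 1.57% of a library in GFP and 0.711% to 0.894% in Notum mice.

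Genes that work with the basement membrane were read from lists, none of whose members passed the adjusted edgeR test. Over all tested genes 48.8% were below 0 and 9.54% were lower at an unadjusted p under 0.05. Of 10 tested genes of other components 6 were below 0, near that share, with a median log2 fold change of -0.05. Vwa1, which binds perlecan, was at a log2 fold change of -0.66 (adjusted p = 0.166 by edgeR) and Fbln1, a fibulin, at -0.99 (adjusted p = 0.231), each with an unadjusted p under 0.05. Of 9 receptor genes 8 were below 0 and 4 had such a p. It was met by the integrin chains Itga1 (-0.33), Itga3 (-0.31) and Itgb1 (-0.31) and by Bcam, a receptor for the Lama5 chain (-0.57, adjusted p = 0.140 by edgeR). Bcam stood in a list that the study drew from these mice, so it is not independent either. Of 12 dystroglycan partners and the enzymes that glycosylate it, 11 were below 0 and 3 had such a p. They included the cytoskeletal linker Utrn (-0.56, adjusted p = 0.151 by edgeR) and the sarcoglycan gene Sgce (-0.60). The median log2 fold changes were -0.31 and -0.29 in the receptor and dystroglycan lists, beside 0.00773 over all tested genes.

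Of 7 genes for folding, export and cross-linking of type IV collagen, 5 were below 0 and 3 were lower at an unadjusted edgeR p under 0.05, beside the same shares of 48.8% and 9.54%, with a median of -0.35. Serpinh1, the collagen chaperone HSP47, had 498 ± 150 CPM (SD, n = 6) in GFP and 300.5 ± 32.3 CPM (SD, n = 6) in Notum mice. Its log2 fold change came to -0.73 (SE 0.18, unadjusted p = 0.00175 and adjusted p = 0.141 by edgeR). Serpinh1 too stood in a list that the study drew from these mice. Plod3, a lysyl hydroxylase and glycosyltransferase of collagen, was at -0.43 and Loxl2, a lysyl oxidase that cross-links type IV collagen, was at -0.35. Of 6 genes of degradation and processing, 4 were below 0 and 1 had such a p, with a median of -0.35. Bmp1, the protease that trims procollagens and laminin chains, was at -0.45 (adjusted p = 0.1735 by edgeR).

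Marker lists of cell types were read beside the shares over all tested genes, 48.8% below 0 and 9.54% lower at an unadjusted edgeR p under 0.05. Of 12 endothelial markers, 11 had a log2 fold change below 0 and 6 an unadjusted edgeR p under 0.05 (Flt1, Tek, Tie1, Esam, Erg and Sox17), with a median of -0.375 and summed levels of 826.8 to 1360 CPM in GFP and 762.1 to 1070 CPM in Notum mice. Of 10 mural cell markers 6 were below 0 and 4 above, close to the share over all genes, and 2 had such a p (Notch3 and Acta2), with a median of -0.13 and sums of 550.3 to 822.3 and 552.5 to 747.5 CPM. Notch3 stood in a list that the study drew from these mice. Of 10 fibroblast and progenitor markers 8 were below 0 and 4 had such a p (Pdgfra, Dcn, Mfap5 and Clec3b), with a median of -0.36 and sums of 9369 to 22826 and 9088 to 16192 CPM. Gsn alone averaged 15440 CPM in GFP and 10880 CPM in Notum mice, most of these sums, and Dpp4 and Ly6a were above 0. Of 10 adipocyte markers 8 were below 0 and none had such a p, with a median of -0.24. All 8 Schwann cell markers were below 0 (median -0.46, none with such a p), and all 15 lymphocyte markers were above 0 (median 0.99, none with an unadjusted p under 0.05), with median sums of 775.8 CPM in GFP and 1626 CPM in Notum mice. Of 3 tested epithelial markers 2 were below 0 (median -0.0559), and all 6 tested skeletal muscle markers were above 0 (median 1.36), none of either with an unadjusted p under 0.05. All 8 hepatocyte markers were below 0, with a median of -2.80 and median sums of 228.1 CPM in GFP and 40.9 CPM in Notum mice. Of these Alb and Serpina1a had an unadjusted edgeR p under 0.05. Of 10 macrophage markers 6 were below 0 (median -0.09), and Mrc1 and Cd163 had such a p. For Cd163, which stood in a list that the study drew from these mice, the groups were separate, where the background was 0.693%. None of the markers in these lists was at 0 reads over the series, and none passed the adjusted test.

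Fitted with the mean log2 level of a marker list as a covariate, one list at a time, the basement membrane genes kept a median log2 fold change below 0. It was -0.23 with the endothelial list, -0.27 with the lymphocyte list, -0.38 with the adipocyte list, -0.44 with the mural list and -0.545 with the fibroblast list. The number of genes lower at an unadjusted edgeR p under 0.05 was 5 of 31 with the endothelial list (Lama3, Lama5, Lamb2, Hspg2 and Tinagl1), 9 with the lymphocyte list, 14 with the mural, 16 with the adipocyte and 17 with the fibroblast list. In the same fits 5.01%, 4.91%, 5.92%, 9.39% and 7.21% of all tested genes were lower at such a p. With the adipocyte list Lamb2, Lamc1, Hspg2, Sparc and Tinagl1 passed the adjusted edgeR test, where the background was 1.05%. With the endothelial list Agrn, at 0.19, and Frem1, at 0.70, were higher at an unadjusted p under 0.05, where the background was 8.50%. A list measured in the same libraries can carry part of the group difference itself, and the part of cell numbers in these results was not tested.

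**Figure D5:**
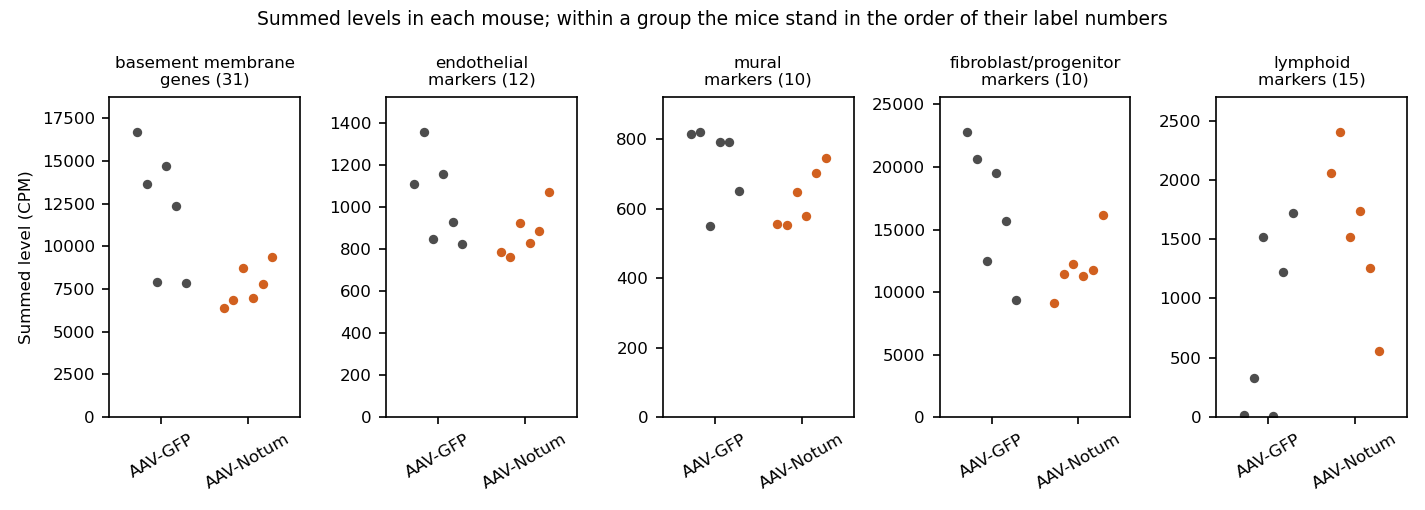
Summed level (vertical axis, CPM, from 0) of the 31 tested basement membrane genes and of 4 marker lists in each mouse, with points in the order of the label numbers in each group. Most of the fibroblast and progenitor sum is that of Gsn. GFP mice S_2013 and S_2022, the third and the last points, are low in the basement membrane genes as in the endothelial list, and the first and the fourth GFP mice, S_2011 and S_2014, lie near 0 for the lymphocyte markers.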

How the data were processed

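RNA-seq of iWAT was analysed in 6 AAV-GFP and 6 AAV-Notum mice, 1 library per mouse, grouped by the labels. Per the labels and methods, the authors made TruSeq libraries, read them single-end, aligned to mm10 with STAR 2.3.1 and used DESeq2. The deposited raw table holds counts of reads per gene, and the deposited normalized table holds log2 values, the log2 of reads divided by a size factor plus 1, which gave back whole reads within 0.01 reads for 100% of the 299459 values above 0. The counting program, its annotation and its strand setting are not given in the sources used here.

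The counts were fitted by edgeR 4.0.16 under R 4.3.3 (filterByExpr with a minimum count of 10 and a total of 15, TMM, glmQLFit, two-sided quasi-likelihood F test) over all genes, with Benjamini-Hochberg adjustment over the 15585 tested and a threshold of 0.05. CPM are scaled to TMM-normalized libraries, and log2 CPM for exact permutation tests use a prior count of 2. Standard errors were taken as the size of the fitted difference over the root of F. Ratios within a mouse used reads plus 0.5. Gene positions and exon lengths are those of GENCODE vM21 on GRCm38, and promoters those of RefSeq. The fits were tested on simulated counts. Figures were drawn with matplotlib 3.10.9.

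Alternatives were DESeq2 1.42.0, limma-voom (limma 3.58.1), RLE and upper-quartile factors, other filters, robust fitting, a covariate (the RNA integrity number or the lymphocyte marker score), the normalized log2 values, each mouse left out in turn, the lymphocyte-poor mice left out together and the study's cluster genes left out. Chosen after seeing the data were the recovered reads, the ratios with mice left out, and the adipocyte, endothelial, mural and fibroblast scores as covariates. The genes and lists were chosen with earlier results of these data known. All 35 are accounted for, those with an unadjusted p under 0.05 and the tested chains of their families in full, and genes of related lists were named at such a p. The labels do not say whether mice shared a cage or a preparation. For its record of food intake, the paper kept mice given the same AAV together in cages. Where that held here, cage and group cannot be told apart, and p-values measure the spread between these mice.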

Additional observations from a re-analysis of the deposited data

Results flagged for a closer look

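Of 82 groups of 6 values checked, 4 had 1 mouse set apart, its distance to the next value as a share of the group's range being above the 95% limit of Dixon's test, where chance gives about 1 in 20 groups, or 4.1. Col15a1 was the only basement membrane gene among them, since Notum mouse S_2032 had 258.6 CPM against 395 to 455 CPM in the other Notum mice (gap ratio 0.694). The other 3 were marker lists of other tissues. Skeletal muscle markers summed to 3514 CPM in Notum mouse S_2042 against 5.38 to 518.5 CPM (0.854), and that mouse was the highest of its group for 16 of the 31 basement membrane genes. Hepatocyte markers summed to 5420 CPM in GFP mouse S_2013 against 45.7 to 1432 CPM (0.742), a mouse that was the lowest of its group for 14 of the 31 genes, and to 777.7 CPM in Notum mouse S_2041 against 20.1 to 138.9 CPM (0.843). Without mouse S_2042 the median log2 fold change of the basement membrane genes was -0.62, and without mouse S_2013 it was -0.64. The part of these tissues in the levels was not tested.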

How the results depend on the processing

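The median log2 fold change of the basement membrane genes was below 0 in every alternative run, from -0.64 to -0.23, and from -0.64 to -0.44 with single mice left out. The count of lower genes at an unadjusted p under 0.05 was 18 of 31 in the edgeR fit, where the background was 9.54%. With the lymphocyte score it was 9 (background 4.91%) and with the endothelial score 5 (background 5.01%). Without the study's 10 cluster genes it was 8 of 21. With single mice left out it was 15 to 21 of 31, while the count over all tested genes ran from 1053 to 2138. The count of higher genes was 1 (background 4.64%). It was 0 with the RNA integrity number, the lymphocyte, the mural or the fibroblast score or without mice S_2011 and S_2014. In those fits 345 to 656 of all tested genes were higher. With the endothelial score it was 2 (background 8.50%). With single mice left out it was 0 to 1, while 455 to 1625 of all tested genes were higher. The count lower at the adjusted test was 0 (background 0.0513%), 12 with DESeq2 (2.18%) and 5 with the adipocyte score (1.05%). With single mice left out it was 0 to 5, while 1 to 146 of all tested genes passed in that direction. The causes were not tested.

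Signs turned only for genes near 0 or with wide intervals. Lamb3 was at -0.0428 with the RNA integrity number, -0.15 with the lymphocyte, -0.0451 with the adipocyte, -0.22 with the endothelial and -0.0473 with the mural score, -0.0619 without mice S_2011 and S_2014 and -0.0596 without mouse S_2032. Lamc3 was at 0.00958 with the lymphocyte, 0.20 with the endothelial, 0.10 with the mural and 0.0241 with the fibroblast score. Agrn lay between -0.00624 and 0.076 with single mice left out, below 0 without mouse S_2013, S_2021, S_2022 or S_2042. Dag1 was at 0.12 and 0.18 with the lymphocyte and the endothelial score and 0.00227 without mice S_2011 and S_2014. Egflam was at 0.17, 0.0110 and 0.25 with the lymphocyte, adipocyte and endothelial score and 0.0261 without those mice. Smoc1 was at 0.0134 and 0.15 with the lymphocyte and the endothelial score. Frem1 was at -0.0102 with upper-quartile factors, -0.0249 with the recovered reads and between -0.17 and -0.06 without mouse S_2013, S_2014, S_2021, S_2022, S_2033 or S_2042. The Lama2 to Lama4 ratio was at 0.00545 without mouse S_2012. No paired analysis was possible because the groups share no replicate numbers. Members with few reads, such as Frem1 and Hmcn1, carry more counting error than the others.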
